A study of Mus musculus with 8 samples.

Results

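The canonical histone genes were examined in RNA selected for poly(A) tails. They were taken as every gene of the deposited count table whose symbol starts with H1f, H2ac, H2bc, H3c or H4c followed directly by a number, leaving out 3 symbols that end in -ps. This gave 70 of the 32859 genes of the table: 9 for the linker histone H1, 17 for H2A, 19 for H2B, 12 for H3 and 13 for H4. The RNA came from primary portal fibroblasts of the liver, isolated by flow cytometry through the tdT reporter from livers of normal mice of the genotype Clec3bCreERT2;R26tdT, in which an inducible Cre recombinase under Clec3b switches on the reporter. The sorted cells received a control lentivirus (Lenti-Ctrl, 4 libraries) or a lentivirus carrying Klf4, a zinc-finger transcription factor (Lenti-Klf4, 4 libraries). The study asked how KLF4 bears on the change of these cells into myofibroblasts. The labels give no age or sex of the mice, no passage number, no interval between transduction and harvest, and no statement on how many mice contributed to a group, so the p-values measure the spread between these libraries, which may be technical.

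Most canonical histone genes lie in clusters, are transcribed mainly in S phase, and supply the histones that package newly copied DNA. Their messenger RNAs normally have no poly(A) tail. They end just after a short stem-loop, which the stem-loop binding protein SLBP recognises and a dedicated cleavage machinery uses as its signal. A minority of histone transcripts run on to a polyadenylation signal, and some histone genes outside the clusters, such as H1f0, make polyadenylated RNA as a rule and are known for expression in differentiated cells. Oligo(dT) selection, used here in 2 rounds, is meant to keep RNA with a poly(A) tail. The values below are therefore taken as the polyadenylated share of histone RNA and are no measure of the rest. Whether RNA without a tail was carried over was not measured.

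The stem-loop is the sequence on which the 3′ end of these messages turns. A 16-base histone stem-loop pattern was looked for on the sense strand of the longest annotated GENCODE M21 transcript of each gene. It was found in 43 of the 70 genes and, for comparison, in 156 of all 58797 protein-coding transcripts (0.265%). Of the 27 genes without it, 11 have an annotated transcript that covers the coding sequence alone and therefore cannot show it. Among 6 forms of the letters, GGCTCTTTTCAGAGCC was found in 25 genes, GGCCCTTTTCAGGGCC in 7 and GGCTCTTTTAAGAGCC in 6. The following 8 sites are shown because they belong to genes that were lower (H1f2, H2ac25, H2bc8, H4c9) or higher (H2ac6, H3c14, H2bc12, H4c14) after Klf4 transduction, with the stem-loop in capitals.
H1f2: caaaaGGCTCTTTTCAGAGCCaccactcc
H2ac25: ccaaaGGCTCTTTTCAGAGCCacccacaa
H2bc8: ccaaaGGCTCTTTTCAGAGCCacccatac
H4c9: ttaaaGGCCCTTTTTAGGGCCaccacaaa
H2ac6: ccaaaGGCTCTTTTCAGAGCCcccacttt
H3c14: acaaaGGCTCTTTTCAGAGCCaccacagc
H2bc12: ccaaaGGCTCTTTTAAGAGCCactaaacc
H4c14: ctaacGGCCCTTTTTAGGGCCaaccacag
The same 16 letters stood in H1f2, H2ac25 and H2bc8, which were lower, and in H2ac6 and H3c14, which were higher.

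The other signal is AATAAA, the usual polyadenylation signal, which was found in the last 50 bases of the transcript in 15 of the 70 genes and in 40.5% of all protein-coding transcripts. The 5 sites below are shown as examples. H1f0 and H1f10 carry this signal and no stem-loop letters, whereas H1f2, H2ac25 and H3c14 carry it downstream of the stem-loop printed above. In all, 9 genes carry both, H4c14 among them. AATAAA is in capitals.
H1f0: aactttaaAATAAAactggaaaggaaaaaa
H1f10: ctggggcgcAATAAAcggttccaaccttga
H1f2: gcttctAATAAAaagcgtttagttttcatt
H2ac25: atgcccAATAAAataagagtacgtgtataa
H3c14: taatcccAATAAAaatttaacacactgcta
The annotated transcript ran 840 bases past the stem-loop in H1f2, 1643 bases in H2ac25 and 1167 bases in H3c14.

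Total counts were 57306334 to 87361995 per library, and 22351 to 24212 genes had at least 1 count. Klf4 itself stood at 86.8, 92.3, 83.0 and 87.1 normalised read counts (CPM, scaled to library size) in Lenti-Ctrl replicates 1 to 4 and at 201, 241, 234 and 235 CPM in Lenti-Klf4 replicates 1 to 4, a 2.61-fold rise. The quasi-likelihood test of edgeR gave a log2 fold change of 1.38 with an SE of 0.0555 and an adjusted p of 2.5e-10, and reads from the lentivirus and from the cells' own gene were not separated. All 15 listed fibroblast markers had counts, with a summed level of 28820 to 30359 CPM in Lenti-Ctrl against 12154 to 13785 CPM in Lenti-Klf4, and 11 of them fell, 2 rose and 2 did not pass. Clec3b had 4 counts in all Lenti-Ctrl libraries together and 73 in all Lenti-Klf4 libraries. Of 20 macrophage and leukocyte markers, 19 were tested and all 19 fell, from a summed 5805 to 6240 CPM to 191 to 265 CPM, with Clec4f, Cx3cr1 and Timd4 at 0 in Lenti-Klf4. All 13 tested endothelial markers also fell, from a summed 475 to 481 CPM to 49.1 to 63.3 CPM, with Clec4g at 0 in Lenti-Klf4. The 5 tested hepatocyte markers rose, from a summed 0.279 to 1.09 CPM to 10.1 to 13.3 CPM, with Apoa1 and Ttr at 0 in Lenti-Ctrl, and of 8 cholangiocyte markers 4 rose, 2 fell and 2 did not pass. The part of these markers in the histone results below was not tested.

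Every one of the 70 histone genes had a count in at least 1 library, and 46 had counts in all 8. Their levels were low: 58 of the 70 had a mean under 1 CPM over the 8 libraries, 12 reached 1 CPM and 5 reached 5 CPM. Lenti-Ctrl replicates 1 to 4 detected 61, 58, 55 and 57 of the genes, and Lenti-Klf4 replicates 1 to 4 detected 64, 64, 67 and 63. With a minimum of 10 counts the numbers were 37, 31, 31 and 25 against 49, 47, 45 and 48, so every Lenti-Klf4 library held more of these genes than every Lenti-Ctrl library. More genes of any kind were also detected in Lenti-Klf4 at each replicate number. Over all genes, 23907, 22539, 22351 and 22491 had a count in Lenti-Ctrl replicates 1 to 4, against 24212, 23109, 23263 and 23317 in Lenti-Klf4. Whether the histone genes go beyond this was not tested. H1f0, H1f2 and H2bc4 together made up 83.3 ± 1.49% of the summed CPM of the 70 genes in Lenti-Ctrl, against 77.1 ± 2.45% in Lenti-Klf4 (SD, n = 4 each).

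In Lenti-Klf4, the most abundant histone messages were lower, and a set of rare ones was higher. The 7 genes that fell (H1f0, H1f2, H1f10, H2ac25, H2bc4, H2bc8 and H4c9) all had a mean over 1 CPM across the 8 libraries, and of the 12 that rose only H3c14 did. In all, 41 of the 70 genes had enough counts for the edgeR test. Of all 18439 genes tested, 37.5% were higher and 34.7% lower in Lenti-Klf4 at an adjusted p under 0.05, and both shares of the histone genes, 12 of 41 and 7 of 41, lie below these. In either direction, 19 of 41 changed, against 72.2% of all genes tested. These shares were not matched for level: 29 of the 41 had a mean under 1 CPM, where few reads limit the test. Of the 12 genes that reached 1 CPM, 7 fell and H3c14 rose. The lower shares are therefore no measure of how strongly histone genes responded. The other 22 of the 41 genes did not pass the test. Without overlap between the groups, 8 were higher and 7 lower, against 36% and 33.2% of all genes tested. The median log2 fold change was 0.53 over the 41 histone genes and 0.0338 over all genes tested. However, 12 of the 41 passed the filter on low counts (about 0.165 CPM in 4 libraries) only through Lenti-Klf4. This route favours genes that are higher there, and 10 of the 12 genes that rose came through it. These 10 are all the genes that rose except H2ac6 and H4c16. The count of genes that rose was 6 without Lenti-Klf4 replicate 1, whereas the 7 genes that fell were called in each of the alternatives run. Of the genes that rose, H2ac6, H3c6, H3c10, H3c14 and H4c14 were called in each alternative that tested them, and the other 7 lost the call when certain single libraries were left out, as given with each. All 7 that fell would have passed through either group alone. In these bulk libraries, fewer cells that make a message and less of it per cell cannot be told apart.

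**Figure D1:**
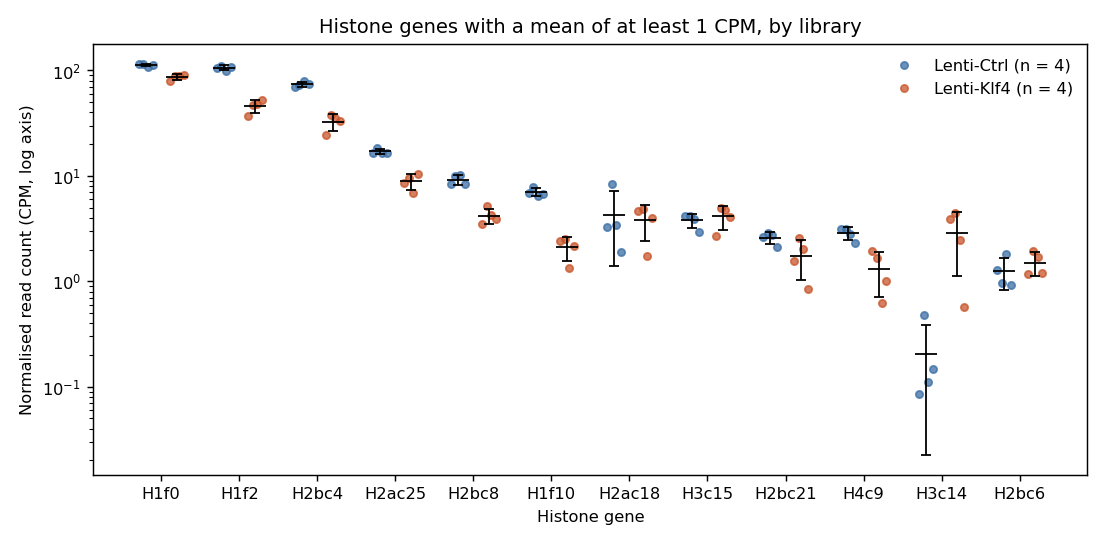
Normalised read count (CPM, log axis) of the 12 histone genes whose mean reached 1 CPM, one point per library, with the mean and SD of 4 Lenti-Ctrl and 4 Lenti-Klf4 libraries. H1f2 lay at 98.8 to 111 CPM in Lenti-Ctrl against 36.9 to 52.4 CPM in Lenti-Klf4, and H3c14 is the one gene of the 12 that was higher.

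**Figure D2:**
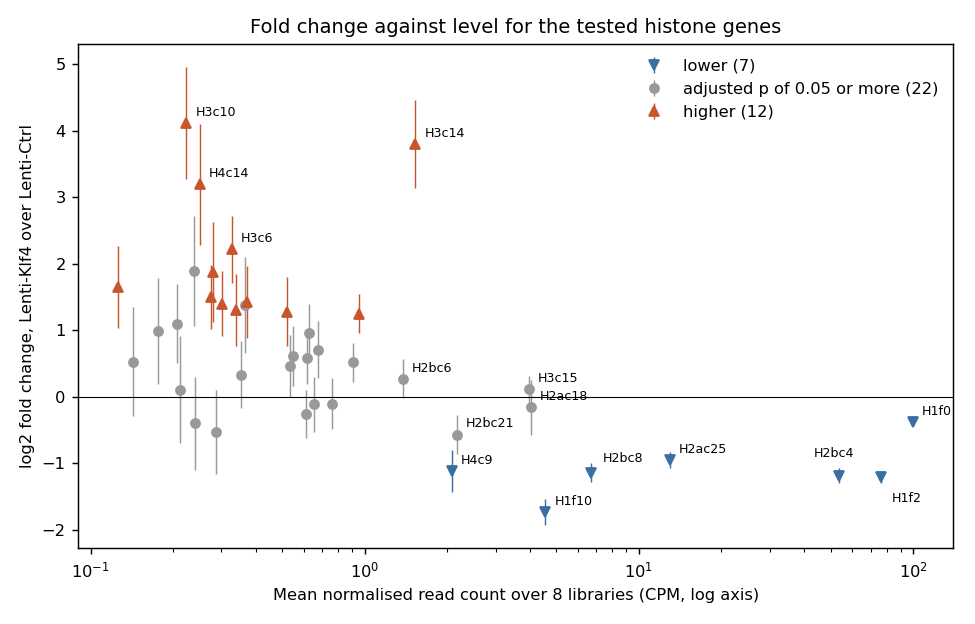
Log2 fold change of Lenti-Klf4 over Lenti-Ctrl with its SE against mean CPM over the 8 libraries (log axis) for the 41 tested histone genes. The 7 genes that fell sit at the right, among the abundant genes, and 11 of the 12 that rose sit under 1 CPM.

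H1 linker histones bind the DNA between nucleosomes. H1f2 (ENSMUSG00000036181, GRCm39 chr13:23922791-23924350, + strand) encodes a somatic H1 of the large chromosome 13 cluster. It stood at 106, 111, 98.8 and 109 CPM in Lenti-Ctrl and at 36.9, 46.6, 48.4 and 52.4 CPM in Lenti-Klf4. The groups did not overlap, and the mean fell 2.30-fold, from 106 ± 5.36 to 46.1 ± 6.55 CPM (log2 change -1.21, SE 0.087, edgeR adjusted p = 6.44e-08). Of the 100-base windows of its transcript, 5.07% also occur in another of the 70 genes.

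H1f0 (ENSMUSG00000096210, chr15:78912650-78914704, + strand) lies outside the clusters and was the most abundant of the 70 by CPM. Its levels were 114, 116, 109 and 114 CPM in Lenti-Ctrl against 79.6, 88.5, 88.9 and 90.3 CPM in Lenti-Klf4. The groups did not overlap, but the change was the smallest among the 7 genes that fell, 1.30-fold (log2 fold change -0.38, SE 0.0439, edgeR adjusted p = 5.43e-06). Its size depended on the scaling. With library totals alone the H1f0 log2 fold change was -0.19 (edgeR adjusted p = 0.00251). By limma on log2 FPKM with 1 added it was -0.18 (adjusted p = 0.00366). Per transcript length, H1f2 was above H1f0 in Lenti-Ctrl (58.9 ± 2.82 against 47.7 ± 1.08 FPKM) and below it in Lenti-Klf4 (29.4 ± 4.35 against 42.0 ± 2.64 FPKM; SD, n = 4 each).

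H1f10 (ENSMUSG00000044927, chr6:87957403-87958619, − strand), another H1 gene outside the clusters, was at 6.87, 7.93, 6.48 and 6.79 CPM in Lenti-Ctrl and at 2.39, 2.52, 1.34 and 2.17 CPM in Lenti-Klf4. Its 3.33-fold fall was the largest among the 41 genes tested (log2 fold change -1.73, SE 0.195, edgeR adjusted p = 4.41e-06). A gene on the opposite strand, Gm5577, overlaps it and also fell (log2 fold change -1.6, adjusted p = 0.0131), and the strand setting of the counting was not given. H1f3, H1f4 and H1f5 were at 0.204 to 0.789 CPM in Lenti-Ctrl and did not pass. The germ-line H1 genes H1f6 and H1f9 had 2 and 28 counts over all 8 libraries.

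Of the 8 tested H2A genes, 3 rose, 1 fell and 4 did not pass. H2ac25 (ENSMUSG00000078851, chr11:58845511-58847656, + strand), in the small chromosome 11 cluster, was at 16.5, 18.6, 16.5 and 16.6 CPM in Lenti-Ctrl and at 8.57, 9.64, 6.83 and 10.4 CPM in Lenti-Klf4. All Lenti-Klf4 libraries lay below all Lenti-Ctrl libraries, and the mean fell 1.93-fold (log2 fold change -0.95, SE 0.121, edgeR adjusted p = 1.48e-05). None of its 100-base windows occurs in another of the 70 genes. H2ac6 (ENSMUSG00000069270, chr13:23865450-23867931, − strand) moved the other way, from 0.381, 0.701, 0.615 and 0.570 CPM to 1.31, 1.53, 1.0 and 1.53 CPM. Its groups did not overlap, and the mean rose 2.37-fold (log2 fold change 1.25, SE 0.295, edgeR adjusted p = 0.00216).

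H2ac4 and H2ac12 also rose, from 0.202 ± 0.128 to 0.543 ± 0.161 CPM and from 0.0597 ± 0.0284 to 0.192 ± 0.0298 CPM (edgeR adjusted p = 0.0313 and 0.029). The H2ac4 call was lost without Lenti-Ctrl replicate 1 or 3 or Lenti-Klf4 replicate 1, 2 or 4, with an adjusted p of up to 0.0952. The H2ac12 call was lost without any one library but Lenti-Klf4 replicate 4 (up to 0.0819). It was also lost with no filter, by DESeq2 and with a replicate-number block. H2ac18 was the most abundant H2A gene that did not pass, at 3.28, 8.46, 3.45 and 1.88 CPM in Lenti-Ctrl against 4.63, 4.88, 1.75 and 4.0 CPM in Lenti-Klf4. One Lenti-Ctrl library, replicate 2, held the highest value, and the groups overlapped (log2 fold change -0.16, adjusted p = 0.75). Of its 100-base windows, 88.1% occur in other genes of the set, and it lies within Gm20634 on the same strand, so its reads could be counted in more than one place.

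H2B genes gave 1 rise, 2 falls and 7 genes that did not pass among 10 tested. H2bc4 (ENSMUSG00000018102, chr13:23868182-23876891, + strand) was the main H2B message, at 70.3, 73.1, 79.6 and 73.7 CPM in Lenti-Ctrl against 24.3, 37.8, 35.6 and 33.2 CPM in Lenti-Klf4. The groups were far apart, with a 2.27-fold fall (log2 fold change -1.18, SE 0.109, edgeR adjusted p = 6.57e-07). H2bc8 (ENSMUSG00000058385, chr13:23755570-23756187, + strand) went from 8.41, 9.91, 10.3 and 8.33 CPM to 3.48, 5.14, 4.24 and 3.91 CPM, a 2.2-fold fall (log2 fold change -1.14, adjusted p = 1.47e-05).

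In these H2B genes, 25.4% of the 100-base windows of H2bc4 and 44.9% of those of H2bc8 occur in other genes of the set. H2bc12 rose from 0.143 ± 0.0481 to 0.408 ± 0.109 CPM (edgeR adjusted p = 0.0145), with 70.8% of its windows shared and an adjusted p of 0.0561 without Lenti-Klf4 replicate 2. The H2bc12 call was also lost with a replicate-number block. H2bc21 was lower in mean, 2.59 ± 0.327 against 1.75 ± 0.721 CPM, but the groups overlapped (adjusted p = 0.0992).

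No H3 gene fell by the edgeR test with all libraries: 4 of the 8 tested rose and 4 did not pass. The 4 that rose (H3c14, H3c10, H3c6 and H3c11) passed the filter on low counts only through Lenti-Klf4. They were therefore tested only because all Lenti-Klf4 libraries reached the filter level. H3c13, low in Lenti-Klf4 and with 0 counts in Lenti-Ctrl replicate 4, was not tested. It was tested and called lower when Lenti-Ctrl replicate 4 or Lenti-Klf4 replicate 4 was left out. H3c14 (ENSMUSG00000093769, chr3:96154001-96155825, + strand) was at 0.0861, 0.478, 0.112 and 0.147 CPM in Lenti-Ctrl and at 3.93, 4.45, 2.46 and 0.574 CPM in Lenti-Klf4. Every Lenti-Klf4 library was above every Lenti-Ctrl library, but Lenti-Klf4 replicate 4 lay just above Lenti-Ctrl replicate 2. The mean rose 13.9-fold (log2 fold change 3.80, SE 0.666, edgeR adjusted p = 0.000225), and the log2 fold change was 4.64 without Lenti-Ctrl replicate 2. Of its 100-base windows, 32.9% occur in H3c13 or H3c15 and it lies within Gm20634, which fell (log2 fold change -0.67, adjusted p = 0.0184).

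H3c15, the neighbour that shares sequence with H3c14, was at 3.80 ± 0.577 CPM in Lenti-Ctrl against 4.12 ± 1.02 CPM in Lenti-Klf4 (edgeR log2 fold change 0.11, adjusted p = 0.639). Summed, H3c14 and H3c15 were at 4.24, 4.68, 3.99 and 3.11 CPM in Lenti-Ctrl and at 6.62, 9.42, 7.21 and 4.65 CPM in Lenti-Klf4. The sum was 1.74-fold higher in mean, and Lenti-Klf4 replicate 4 fell within the Lenti-Ctrl range. By the authors' FPKM the sums of the pair did not overlap (3.31 ± 0.507 against 5.56 ± 1.35 FPKM).

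H3c10 (chr13:21901829-21902239, + strand) had 5, 0, 0 and 1 counts in Lenti-Ctrl and 25, 18, 45 and 29 counts in Lenti-Klf4. It gave the largest log2 fold change of the set, 4.12 with an SE of 0.84 (edgeR adjusted p = 0.000745), from these few counts, and 5.74 without Lenti-Ctrl replicate 1. Of its windows, 92.0% are shared. H3c6 was at 0.148, 0.0683, 0.186 and 0.0552 CPM in Lenti-Ctrl and at 0.512, 0.627, 0.578 and 0.450 CPM in Lenti-Klf4, with no overlap (log2 fold change 2.22, SE 0.504, adjusted p = 0.00166). H3c11 rose with overlapping groups (adjusted p = 0.0475). Its call was lost without Lenti-Ctrl replicate 2, 3 or 4 or Lenti-Klf4 replicate 1, 3 or 4, with an adjusted p of up to 0.152. It was also lost with RLE scaling, with no filter, by DESeq2, by limma-voom and with a replicate-number block. H3c13, too low for that test, had 63 counts over Lenti-Ctrl and 13 over Lenti-Klf4, with overlapping groups.

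Of 9 tested H4 genes, 4 rose, 1 fell and 4 did not pass. H4c9 (ENSMUSG00000060639, chr13:22224806-22225532, − strand), the most abundant of them, was at 3.14, 3.16, 2.81 and 2.32 CPM in Lenti-Ctrl and at 1.96, 1.66, 0.623 and 1.01 CPM in Lenti-Klf4. It fell 2.18-fold with no overlap (log2 fold change -1.12, SE 0.314, edgeR adjusted p = 0.0066). H4c14 (chr3:96168998-96170627, − strand) had 0, 0, 4 and 7 counts in Lenti-Ctrl and 28, 17, 44 and 35 counts in Lenti-Klf4 (log2 fold change 3.19, SE 0.906, adjusted p = 0.00705), and the log2 fold change was 4.24 without Lenti-Ctrl replicate 4.

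The H4 gene outside the clusters, H4c16 on chromosome 6, was at 0.0369, 0.222, 0.0745 and 0.147 CPM in Lenti-Ctrl and at 0.387, 0.321, 0.958 and 0.0930 CPM in Lenti-Klf4. The groups overlapped, the adjusted p was 0.0398 by edgeR, and the call was lost without Lenti-Ctrl replicate 1, 3 or 4 or Lenti-Klf4 replicate 1, 2 or 3. Without Lenti-Klf4 replicate 3 the adjusted p was 0.204 and the log2 fold change 1.16, against 1.88 with all libraries. The call was also lost with no filter, by limma-voom, by limma on FPKM and with a replicate-number block. H4c12 and H4c18 rose with overlapping groups (adjusted p = 0.0217 and 0.042). The H4c12 call was lost without Lenti-Ctrl replicate 1 or 3 or Lenti-Klf4 replicate 1, 2 or 4 (up to 0.0734), and with a replicate-number block. The H4c18 call was lost without Lenti-Ctrl replicate 1, 3 or 4 or Lenti-Klf4 replicate 1, 2 or 4 (up to 0.131). It was also lost with no filter and with a replicate-number block. The H4c18 log2 fold change of 1.28 was 1.92 without Lenti-Ctrl replicate 2.

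Summed over all 70 genes, the level was 348, 367, 347 and 347 CPM in Lenti-Ctrl against 189, 228, 217 and 224 CPM in Lenti-Klf4. The groups did not overlap, and the sum was 1.64-fold lower in Lenti-Klf4 (352 ± 9.73 against 215 ± 17.7 CPM). The H1 sum was 1.67-fold lower (228 ± 8.68 against 137 ± 11.3 CPM) and the H2B sum 2.02-fold lower (90.5 ± 5.60 against 44.7 ± 7.77 CPM), both without overlap. The H3 sum was 1.83-fold higher without overlap (5.91 ± 0.971 against 10.8 ± 1.51 CPM). The H4 sums overlapped (4.98 ± 0.509 against 5.74 ± 0.719 CPM). The H2A sum was lower by CPM (23.0 ± 3.81 against 16.6 ± 3.42 CPM, no overlap) but overlapped and was slightly higher in mean by the authors' FPKM (15.2 ± 4.43 against 16.2 ± 3.83 FPKM).

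The 58 genes with a mean under 1 CPM made up little of the total. Their sum was 10.6, 10.4, 12.3 and 9.20 CPM in Lenti-Ctrl against 17.9, 17.7, 17.9 and 20.2 CPM in Lenti-Klf4. This was a 1.74-fold higher mean with no overlap, and 48 of the 58 had a higher mean in Lenti-Klf4. The same share was not computed for all genes under 1 CPM, so whether it is particular to histone genes was not tested. Some of the 58 share most of their 100-base windows with other genes of the set (H2ac23 92.7%, H2bc23 93.9%), and others share none (H4c14, H4c16). The 58 counts may therefore not be independent. Among the genes under 1 CPM, the H2A, H3 and H4 sums did not overlap between groups, whereas those of H1 and H2B did. No test was made on these sums. Of the 29 genes too low for edgeR, 4 H2A genes were higher without overlap: H2ac11 (9 against 47 counts over the group), H2ac15 (0 against 19), H2ac20 (4 against 37) and H2ac23 (17 against 66). Each had p = 0.0286 by an exact two-sided permutation test (n = 4 each), the smallest this design can give, unadjusted over 29 genes. Any gene without overlap gets this p here, so it only restates the separation by which these 4 were named. Of all 30894 genes with a count, 22.8% were higher without overlap and 21.1% lower, against 12 and 7 of the 70 histone genes.

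**Figure D3:**
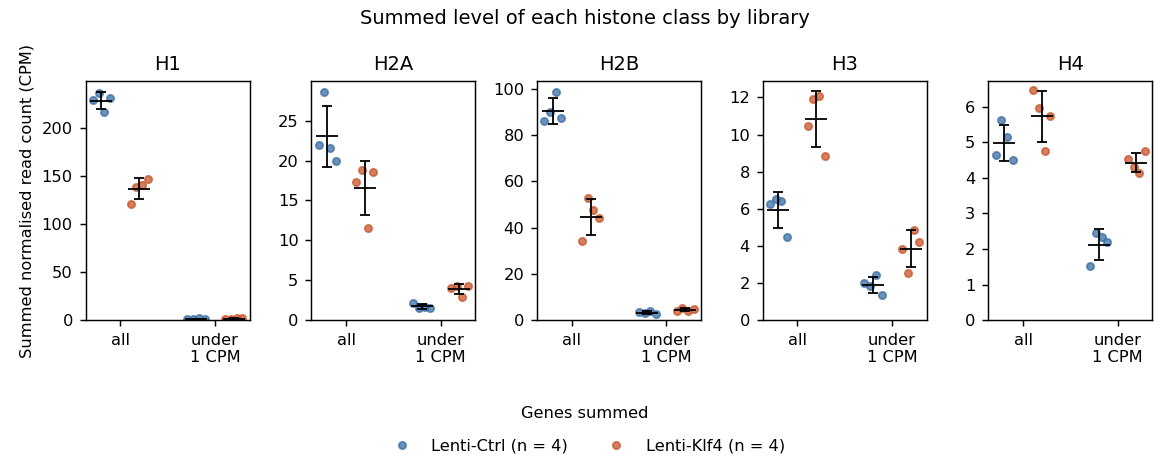
Summed CPM of each histone class by library, for all genes of the class and for those with a mean under 1 CPM, with mean and SD of 4 libraries per group (separate linear axes from 0). The H1 and H2B totals lie lower in Lenti-Klf4, the H3 total lies higher, and the low-level H2A, H3 and H4 genes lie higher.

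By position, 1 of 2 groups of genes on chromosome 13 (GRCm39 chr13:23715220-24118139, 30 genes) had the largest summed level, 192 to 201 CPM in Lenti-Ctrl against 75.4 to 101 CPM in Lenti-Klf4. Of its 19 tested genes 3 rose and 3 fell. In the other chromosome 13 group (chr13:21899933-22227846, 23 genes), 6 of 13 tested genes rose and 1 fell, and the sums overlapped by CPM (6.92 ± 0.909 against 8.88 ± 1.36 CPM). By the authors' FPKM they did not, and the mean was 1.68-fold higher in Lenti-Klf4 (9.11 ± 1.32 against 15.3 ± 1.94 FPKM). In the chromosome 3 cluster (chr3:96127181-96177448, 10 genes), 2 of 5 rose and none fell by the edgeR test, and the sums overlapped. These 2 genes and the 6 that rose in the second chromosome 13 group all passed the filter on low counts only through Lenti-Klf4. Of all genes tested, 37.5% rose and 34.7% fell. The counts by cluster are small and were not tested against these shares.

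The level in the poly(A) fraction was set beside the length of annotated transcript past the stem-loop. Among 21 genes whose transcript ends within 100 bases of the stem-loop, 1 reached a mean of 1 CPM (H2ac18). Among 22 genes whose transcript runs further, 7 did (H1f2, H2ac25, H2bc6, H2bc8, H3c14, H3c15 and H4c9). The median level in Lenti-Ctrl was 0.153 FPKM in the first set and 0.151 FPKM in the second. Of the first set 3 genes rose and none fell by the edgeR test, 8 did not pass and 10 were not tested. Of the second 5 rose, 4 fell, 8 did not pass and 5 were not tested. The 3 that rose in the first set (H2ac4, H2bc12 and H4c18) passed the filter on low counts only through Lenti-Klf4. So did H3c6, H3c14 and H4c14 of the second. Of all genes tested, 37.5% rose and 34.7% fell. These counts are a description with no test.

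**Figure D4:**
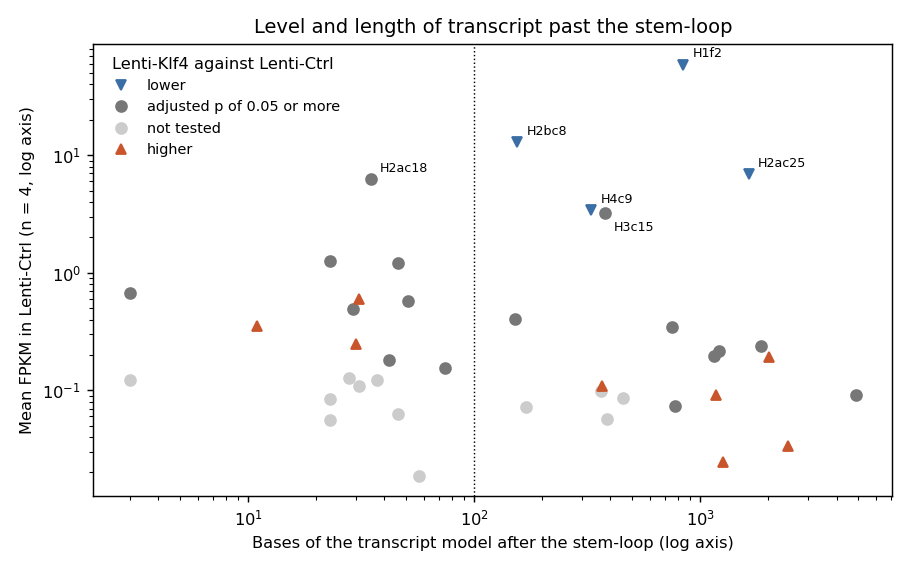
Mean FPKM in Lenti-Ctrl (n = 4, log axis) against the number of bases the annotated transcript runs past the stem-loop (log axis), for histone genes with the stem-loop letters and a Lenti-Ctrl level above 0, coloured by the edgeR call. The dotted line marks 100 bases, and H1f2, H2ac25, H2bc8 and H4c9, the genes with a stem-loop that fell, all lie to its right.

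Many H2A and H2B genes stand head to head and share a promoter region. There were 13 such pairs with a gap under 1000 bases, 12 of them an H2A with an H2B gene, and 4 with both genes tested. H2ac12 and H2bc12, 301 bases apart, both rose. H2ac6 and H2bc4, 250 bases apart, moved in opposite directions, as given above. The sequence around the H2ac6 start is shown because it spans the stretch between these genes: RefSeq, GRCm38.p6, chr13:23683910-23684209, − strand, from 250 bases before to 50 after the start. Capitals mark the octamer ATTTGCAT, the letters CCAAT and the letters TATAAA, each on either strand.
H2ac6: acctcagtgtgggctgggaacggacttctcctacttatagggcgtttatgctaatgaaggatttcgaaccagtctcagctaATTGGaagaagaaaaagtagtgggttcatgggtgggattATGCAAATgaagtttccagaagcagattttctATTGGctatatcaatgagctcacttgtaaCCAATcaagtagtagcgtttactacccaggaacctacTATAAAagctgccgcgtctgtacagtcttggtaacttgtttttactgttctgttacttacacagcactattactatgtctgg
It holds 3 matches to CCAAT, 1 to TATAAA next to the H2ac6 start and 1 to the octamer.

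A RefSeq promoter of this length was found for 61 of the 70 genes. CCAAT, the letters that NF-Y binds, occurred on either strand in 83.6% of them, against 37.4% of all 32851 promoters, and in all 16 H2A, all 15 H2B and all 10 H3 promoters but 3 of 11 for H4. TATAAA occurred in 54.1% against 13.6%. ATTTGCAT, the octamer that POU2F1 binds, occurred in 18% against 1.74%, in 5 H2A and 6 H2B promoters. CACCC, letters within the sites of KLF factors, occurred in 31.1% against 57.5%. None of these motifs contains another, and a match describes letters only. The H2A and H2B promoters are not all separate: genes that stand head to head share much of this stretch, and the same site can count for both.

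Apart from the variant histones, the other genes of histone supply were mostly higher in Lenti-Klf4. The replication-independent and variant histones have mostly polyadenylated messages. Of 10 tested, 4 rose, 1 fell and 5 did not pass, with a median log2 fold change of 0.13. Among all genes tested, 37.5% rose and 34.7% fell. H2az1, encoding H2A.Z, rose from 132 ± 4.50 to 235 ± 9.23 CPM (log2 fold change 0.83). Macroh2a2 rose from 8.90 ± 1.15 to 14.6 ± 0.761 CPM, H2aj and Macroh2a1 rose by less (log2 0.25 and 0.14), and H2ax fell (log2 fold change -0.26). The H3.3 genes H3f3b and H3f3a did not pass, at 307 ± 7.89 against 290 ± 16.6 CPM and 176 ± 3.62 against 173 ± 6.66 CPM.

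Of 26 tested genes for the 3′ end processing and decay of histone messages, 23 rose, 2 fell and 1, Zfp473, did not pass (median log2 fold change 0.65). Slbp, encoding the stem-loop binding protein, rose from 28.8 ± 2.82 to 114 ± 7.61 CPM (log2 fold change 1.99, edgeR adjusted p = 7.83e-11). Cstf2, a cleavage factor subunit, rose from 34.0 ± 1.15 to 119 ± 3.20 CPM, Casp8ap2 (FLASH) from 19.9 ± 0.627 to 58.6 ± 3.43 CPM, and Eri1, an exonuclease of the histone 3′ end, from 41.2 ± 0.684 to 86.4 ± 2.40 CPM. Exosc10, an exosome nuclease, rose from 57.3 ± 0.849 to 108 ± 4.71 CPM.

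Of 18 genes listed for histone gene transcription, 12 rose, 2 fell and 4 did not pass (median log2 fold change 0.46). Ccne1, whose cyclin E with CDK2 activates NPAT at the clusters, rose from 17.6 ± 0.855 to 72.3 ± 6.05 CPM, and Cdk2 from 28.1 ± 1.40 to 59.1 ± 1.34 CPM. E2f1 and E2f4 rose (log2 fold changes 1.48 and 1.09). Nfya, for a subunit of NF-Y, and Zfp91 did not pass (log2 fold change 0.03 each).

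Of 28 chaperone and chromatin assembly genes, 25 rose and 3 fell (median log2 fold change 1.06). Hat1, the histone acetyltransferase of new H4, rose from 23.3 ± 1.21 to 127 ± 7.63 CPM and Nasp, an H1 and H3-H4 chaperone, from 25.5 ± 1.31 to 109 ± 4.24 CPM. Chaf1a, Ssrp1 and Set also rose (log2 fold changes 1.86, 1.76 and 1.38).

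All 24 listed S phase genes rose, with a median log2 fold change of 2.17, for example Mcm2, a helicase subunit, from 39.8 ± 2.24 to 343 ± 18.9 CPM. Mcm4, Mcm5, Cdt1 and Uhrf1 had log2 fold changes of 2.73, 2.93, 2.71 and 2.85. Of 22 genes of G2 and M phase, 18 rose, 1 fell and 3 did not pass (median 0.93): Bub1, Top2a, Tpx2, Cdk1 and Ccnb1 rose (log2 fold changes 1.9, 1.5, 1.38, 1.24 and 1.14), while Mki67, at 91.5 ± 3.53 against 85.8 ± 3.25 CPM, and Plk1 did not pass. Slbp stands in both the processing and the S phase list, and Casp8ap2 in both the processing and the transcription list. Over all genes tested, 37.5% rose and 34.7% fell.

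**Figure D5:**
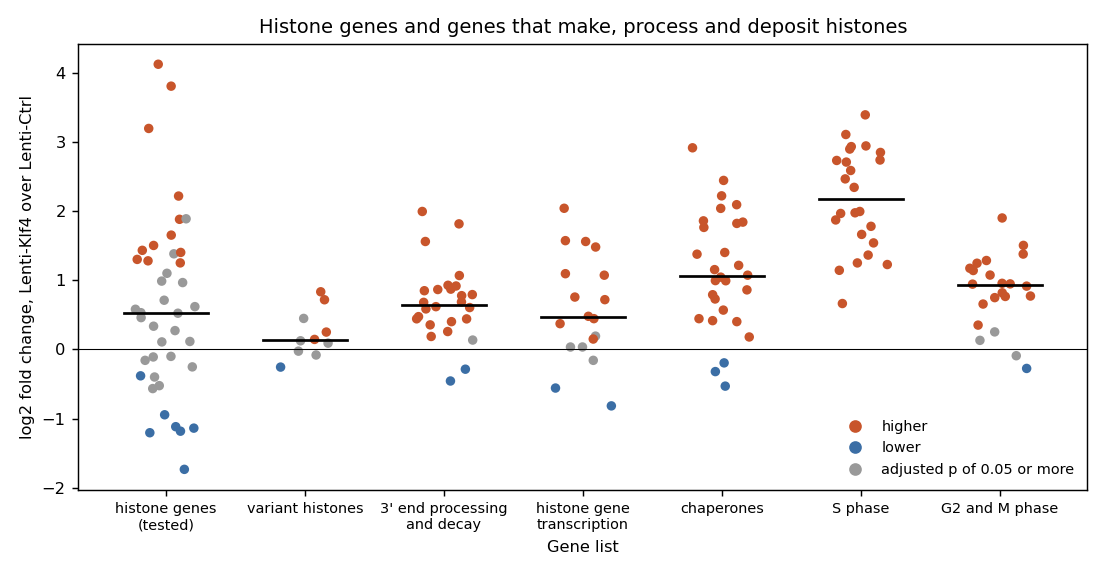
Log2 fold change of Lenti-Klf4 over Lenti-Ctrl for the 41 tested histone genes and for the tested genes of 6 related lists, one point per gene, with the median as a bar. The 24 S phase genes all lie above 0 with a median of 2.17, and the histone genes spread from -1.73 to 4.12.

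The authors' deposited table of their own DESeq2 comparison held 11361 genes, 11 of them in this set. In the authors' deposited table, 7 were lower at an adjusted p under 0.05, 0 were higher and 4 passed in neither direction. These 7 are the genes that fell in the edgeR test, with log2 fold changes in the authors' deposited table from -0.47 for H1f0 to -1.82 for H1f10. None of the genes that rose in the edgeR test is among these 11.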

How the data were processed

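RNA of 8 libraries was measured by poly(A)-selected, strand-marked, paired-end RNA sequencing, per the labels' protocols. The authors deposited raw counts per gene and FPKM values (scaled by gene length and library) in one table, and a DESeq2 table with a log2 fold change and p-values, per the file headers. Tools named in the submitters' processing notes are StringTie 2.1.6, HISAT2 2.2.1 and cutadapt 1.9, with build GRCm39. The counting step, its strand setting and its treatment of reads that match several genes are not given in the sources used here. This matters for histone genes, since 58 of the 70 share at least one 100-base window with another, 24 of them over more than 50% of windows, and 19 overlap another gene.

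Counts were tested in R 4.3.3 with edgeR 4.0.16 (TMM scaling, filterByExpr with a minimum count of 10, quasi-likelihood F test on group, Benjamini-Hochberg adjustment over 18439 genes, threshold 0.05). CPM use totals multiplied by TMM factors. Values are means ± SD. The permutation test used log2(CPM + 0.1) over all 70 splits. At these depths, genes under 1 CPM rest on few reads per library, and the reads carry no molecular identifiers. The edgeR step was tested on simulated data.

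The stem-loop and AATAAA were looked for in the longest GENCODE M21 transcript among those the count table lists for a gene, by transcript ID, and promoters are RefSeq's on GRCm38.p6. Coordinates of genes are those of the deposited table. The numbers in the library names were not taken as pairs, since the labels state no pairing. Deviations of libraries with the same number correlated at 0.0236 to 0.0555, and those of other pairs at -0.0531 to 0.0244. With a replicate-number block, 6 histone genes rose instead of 12.

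The text names Klf4, each member of at least 5 CPM, the 5 largest rises and falls among members past the threshold, the members outside the clusters, and from each list at most 5 genes by smallest adjusted p and at most 2 abundant ones that did not pass. Other genes were named after their values were seen. The members and lists were chosen with earlier results of these data known. Alternatives were RLE scaling, library totals alone, no filter, a filter of 1 CPM in 4 libraries, DESeq2 1.42.0, limma 3.58.1 (voom, or log2 FPKM with 1 or 0.1 added), a replicate-number block, and leaving out each library. Drawings were made with matplotlib 3.10.9.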

Additional observations from a re-analysis of the deposited data

Results flagged for a closer look

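Of 58 sets of 4 libraries checked (the named histone genes and the sums, in each group), 7 had a highest or lowest library far from the other three by Dixon's criterion, where chance gives about 1 in 20. H1f0 was lowest in Lenti-Klf4 replicate 1, at 79.6 CPM. H2ac25 and H3c14 were highest among the Lenti-Ctrl libraries in replicate 2, at 18.6 and 0.478 CPM, and the sum of the 70 genes was highest there too, at 367 CPM. H2ac12 was lowest among the Lenti-Ctrl libraries in replicate 2, at 0.0171 CPM. The H3 sum was lowest among Lenti-Ctrl libraries in replicate 4, at 4.47 CPM. The sum of the genes with a mean under 1 CPM was highest in Lenti-Klf4 replicate 4, at 20.2 CPM.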

How the results depend on the processing

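The 7 histone genes that fell were called under every alternative run, and the count was 7 to 8 with one library left out. The added gene was H3c13 without Lenti-Ctrl replicate 4 or Lenti-Klf4 replicate 4, and H2bc21 without Lenti-Klf4 replicate 2. The count that rose, 12, was 1 under the filter of 1 CPM in 4 libraries, which leaves few of these genes to test, 6 with the replicate block, and 6 to 11 with one library left out. It was 9 to 16 in the other alternatives. Same-numbered libraries correlated best with each other for 7 of 8 libraries, a hint from the data and not the design. The log2 ratio of the summed level, -0.72, was -0.52 with library totals alone, -0.49 by FPKM, -0.89 without the members outside the clusters, -0.91 without H1f0 and -0.75 to -0.66 with one library left out. Library totals alone moved the median log2 fold change of all genes from 0.03 to 0.23. H2ac18, which did not pass, changed sign with library totals alone (0.038), by FPKM with 1 or 0.1 added (0.12 and 0.15), and in the range -0.41 to 0.41 with one library left out, being 0.41 without Lenti-Ctrl replicate 2 and 0.08 without Lenti-Klf4 replicate 3. H3c15 was -0.014 without Lenti-Klf4 replicate 2, in a range of -0.014 to 0.26. The cause of these changes was not tested. Over the 22 histone genes refitted singly, 301 values kept direction and side of the threshold, 53 lost the call (H3c11 and H4c16 11 each, H2ac12 10, H4c18 8, H4c12 6, H2ac4 5 and H2bc12 2) and 3 gained it, all for H2bc21. Below about 1 CPM, each gene rests on few reads per library.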
